A study of Mus musculus with 2 samples.

Results

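The alcohol and retinaldehyde dehydrogenases described here are 9 genes, Adh1, Adh4, Adh5, Adh7, Rdh10, Aldh1a1, Aldh1a2, Aldh1a3 and Aldh1a7, of 55536 annotated genes in the tables. They were chosen by symbol with the TPM levels of these libraries known, among them the high level of Adh1, so the levels are given as a description without a test. Each symbol matched 1 gene record. The material was mouse adrenal gland, the gland whose cortex makes steroid hormones and whose medulla makes catecholamines. Both libraries form the only group: females of the first-generation cross B6CASTF1/J (C57BL/6J by CAST/EiJ), 36 days old, with no treatment or engineered allele named in the labels, and total RNA of 300 ng as input with ERCC spike-ins. Per the labels they are biological replicates 1 and 2. The characteristics give the animals different numbers, whereas the library descriptions repeat 1 number and the donor identifier is shared, so an SD here may measure only the spread between libraries. The design has no second condition, and differences between replicates are described without a p-value.

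In the main route to retinoic acid, retinol is oxidised reversibly to retinaldehyde by short-chain retinol dehydrogenases such as Rdh10 and by some cytosolic alcohol dehydrogenases. Retinaldehyde dehydrogenases of the Aldh1a family then oxidise retinaldehyde irreversibly to retinoic acid, the ligand of nuclear receptors. The alcohol dehydrogenases also act on ethanol and other alcohols, and Adh5 is best known for clearing formaldehyde bound to glutathione. In the adrenal, steroid synthesis uses many other dehydrogenases, and the mRNA levels below say nothing of which substrate an enzyme meets.

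The closest relatives in the list were Aldh1a1 and Aldh1a7, and their sequences are shown because they are close copies with different levels. In RefSeq on GRCm38.p6, which is the mm10 assembly, the 120 bases before the annotated start of the 13-exon form of Aldh1a1 lie at chr19:20601848-20601967 on the plus strand, and those of Aldh1a7 at chr19:20727557-20727676 on the minus strand. Capitals mark the 15 bases that differ.
Aldh1a1: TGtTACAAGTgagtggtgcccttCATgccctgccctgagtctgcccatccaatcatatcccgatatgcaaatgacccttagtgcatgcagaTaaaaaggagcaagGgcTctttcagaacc
Aldh1a7: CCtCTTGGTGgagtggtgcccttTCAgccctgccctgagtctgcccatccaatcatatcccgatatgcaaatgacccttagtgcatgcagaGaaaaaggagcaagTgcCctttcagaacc

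The 2 stretches were 87.5% identical, and the next 130 bases upstream, compared without gaps, were 18.5% identical. Positions are counted from 1 at the 5′ end of the printed stretch, with the Aldh1a1 base first. The change T92G, 29 bases before the start, falls in the letters ATAAAA of Aldh1a1, which begin 30 bases before its start. In the 300-base Aldh1a7 window ATAAAA was found once, 243 bases before the start. Searched on both strands, ATAAAA occurred in 18.5% of 32851 RefSeq promoter windows of that length. The octamer ATGCAAAT, present in 1.74% of the windows, begins 56 bases before the start in both genes and 84 bases before the start of Aldh1a2. CCAAT, present in 37.4% of the windows, begins 72 bases before the start in both. The sequence CAAGGTCA, bound by the steroidogenic factor Nr5a1 and present in 1.56% of the windows, was found in none of the members' windows. At that rate an absence from so few windows is no result about the members. Promoter entries were matched for 7 of the 9 genes. The start of the Adh1 entry (138277585) was not that of the leading transcript Adh1-201 (138277494). For Adh5, 1 of the 2 entries lay 5893 bases from the nearest annotated transcript start. A match is a description of letters, not of binding. All letters are those of the reference assembly, and the CAST/EiJ alleles of these animals were not examined.

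Over the 1506 bases of their coding sequences Aldh1a1 and Aldh1a7 differed at 126 bases and were 91.6% identical, against 66.9% to 69.1% for the other pairs of Aldh1a genes and 60.8% to 68.8% for pairs of Adh genes. The coding stretch with the most differences, bases 317 to 376 counted from the start codon, holds 16 of them, in capitals.
Aldh1a1: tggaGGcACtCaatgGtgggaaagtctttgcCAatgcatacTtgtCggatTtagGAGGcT
Aldh1a7: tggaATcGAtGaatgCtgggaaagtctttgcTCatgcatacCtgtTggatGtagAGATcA

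The longest identical coding run was 100 bases (757 to 856). Of the 50-base stretches of the main Aldh1a1 transcript, 151 (7.53%) also occurred in Aldh1a7, and for Aldh1a7 the share was 7.49%. The posterior SD that the deposited gene table gives for the count was 0.26 in replicate 1 and 0.37 in replicate 2 for each of these genes, and 0 for the other 7. Among detected nuclear protein-coding genes, 18.6% had a posterior SD above 0 in at least 1 library.

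The libraries held 35684781 and 38701795 expected counts (replicates 1 and 2), of which the 9 genes took 0.351% and 0.354%. Levels are in TPM, transcript abundance relative to a fixed total, a scale corrected for transcript length on which genes can be compared. A gene was called detected at 1 TPM or more in both libraries. By that rule 8 of the 9 genes were detected, all but Adh4, against a background of 53.0% of nuclear protein-coding genes. The 7 cortex steroid markers were all detected, from 98.2 to 4987.6 TPM and the 5 chromaffin markers of the medulla were detected too. Libraries of whole glands cannot tell fewer cells of a type from less RNA per cell. Replicate 1 stood apart in 2 marker lists of other tissues: the 5 skeletal muscle genes summed to 246.3 TPM against 2.02 in replicate 2, and the 8 liver genes to 124.4 against 87.5, all of both lists being lower in replicate 2. Without Cyp2e1, which was near equal in the libraries and was left out after its values were seen, the other 7 liver genes summed to 38.5 TPM against 2.78.

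Adh1, the class I alcohol dehydrogenase that is abundant in liver, was by far the leading member. It reached 2289.7 TPM (110711 counts) in replicate 1 and 2331 TPM (121425 counts) in replicate 2, a mean of 2310.5 ± 29.5 TPM (SD, n = 2). The difference between the libraries was small beside the level. In both libraries Adh1 ranked 4 of 22015 nuclear protein-coding genes, behind 3 genes of steroid synthesis, Hsd3b1, Star and Cyp21a1. The 3 protein-coding genes nearest to it in level, by Euclidean distance in log2(TPM + 1) over the 2 libraries, were Eef1a1 (distance 0.21), Cyp11a1 (0.23) and Akr1c18 (0.36). Eef1a1 encodes a translation elongation factor, Cyp11a1 the cholesterol side-chain cleavage enzyme and Akr1c18 a hydroxysteroid dehydrogenase of the mouse X-zone. With 2 libraries this likeness is one of level and not of pattern. The 7 liver genes other than Cyp2e1 summed to 38.5 TPM in replicate 1 and 2.78 in replicate 2, with Alb at 22.7 and 1.34 TPM. Cyp2e1, the highest gene of the liver list, was at 85.9 and 84.8 TPM. The Adh1 TPM in replicate 2 was 1.02 times that in replicate 1. The 6 adipocyte markers summed to 1851 and 1835.2 TPM. Whether liver RNA or RNA of fat around the gland had a part in the Adh1 level was not tested.

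Adh5, the glutathione-dependent formaldehyde dehydrogenase found in most tissues, was the second alcohol dehydrogenase in level. Its values were 64.0 TPM (3230 counts) in replicate 1 and 62.8 TPM (3530 counts) in replicate 2, a mean of 63.4 ± 0.85 TPM (SD, n = 2). The libraries were near each other, and Adh1 exceeded Adh5 by 35.8 and 37.1 times. Its nearest protein-coding genes in level were Rab2a (distance 0.015), Rpl27a (0.019) and Oxct1 (0.021), which encode a Rab GTPase of the early secretory route, a ribosomal protein and a mitochondrial enzyme of ketone body use.

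Adh7, the class IV enzyme known from stomach and other epithelia and active on retinol, was at 19.5 TPM (1461 counts) in replicate 1 and 16.9 TPM (1641 counts) in replicate 2. The mean was 18.2 ± 1.86 TPM (SD, n = 2). The TPM was lower in replicate 2 although the count was higher. The effective length by which the deposited TPM is divided was 2078 bases in replicate 1 and 2516 in replicate 2. The gene 0610031O16Rik lies antisense to Adh7 and held 14 and 24 counts (0.54 and 0.95 TPM). Whether the counting used strand is not given in the sources used here, so reads of the 2 genes may not be fully separated.

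Adh4, the class II enzyme typical of liver, held 9 counts in replicate 1 and 6 in replicate 2, with exact 95% Poisson intervals of 4.12 to 17.1 and 2.20 to 13.1 counts for counting error alone. Those counts correspond to 0.24 and 0.13 TPM. A count of 0, taken to allow 3 counts, would allow 0.0841 and 0.0775 CPM (counts relative to the library total) in these libraries, and Adh4 stood at 0.252 and 0.155 CPM. Reads of Adh4 were counted in both libraries, below the detection threshold, and the interval for replicate 2 reached below 3 counts.

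These 4 genes sit in 1 cluster on chromosome 3 (mm10, GENCODE M21), all on the plus strand. From the lower coordinate upwards the order is Adh7 (138217760 to 138233382), Adh1 (138260991 to 138290698), Adh6a, Adh6b, the pseudogene Adh6-ps1, Adh4 (138415466 to 138430892) and Adh5 (138443093 to 138455499), 7 genes over 237.7 kb. Levels did not follow the order of the genes. Adh6a held 0 counts, Adh6b 3 and 6 counts (0.05 and 0.10 TPM) and Adh6-ps1 0.02 and 0.01 TPM, while Adh1 on one side and Adh5 on the other had the cluster's highest levels.

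**Figure D1:**
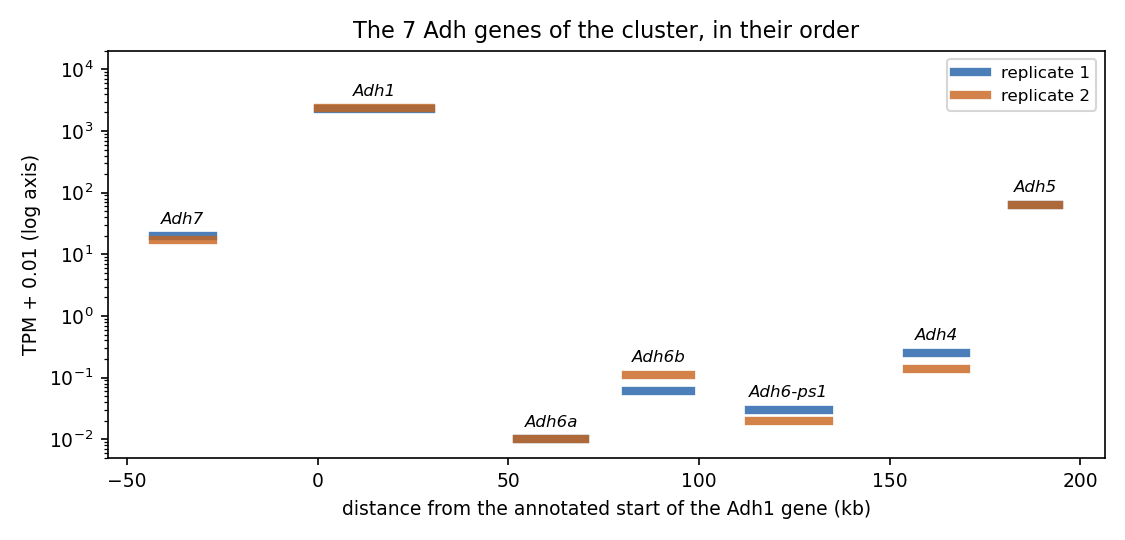
TPM + 0.01 (log axis) of the 7 Adh genes of the cluster, drawn as bars of each gene's length against the distance in kb from the annotated start of the Adh1 gene, for replicate 1 (blue) and replicate 2 (orange). Adh1 stands at 2310.5 TPM on average, and the 4 genes between Adh1 and Adh5 stand below 1 TPM.

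Rdh10, the microsomal retinol dehydrogenase that embryos need for retinoic acid synthesis, was at 3.77 TPM (470 counts) in replicate 1 and 3.43 TPM (453 counts) in replicate 2. The mean was 3.6 ± 0.24 TPM (SD, n = 2). It lies on chromosome 1 from 16105774 to 16133734 on the plus strand. Its level was far below those of the 3 detected alcohol dehydrogenases, Adh1 exceeding it by 607.3 and 679.7 times in TPM.

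Among the Aldh1a genes Aldh1a1 led. Its TPM was 98.5 (6883 counts) in replicate 1 and 100.1 (7549.9 counts) in replicate 2, a mean of 99.3 ± 1.17 TPM (SD, n = 2). It held 76.6% and 79.5% of the summed TPM of the 4 Aldh1a genes. The gene spans 20492715 to 20643465 on the plus strand of chromosome 19. Its nearest protein-coding genes in level were Ndufa5 (distance 0.0058), a subunit of respiratory complex I, Oxtr (0.0079), the oxytocin receptor, and Ctsf (0.013), a lysosomal protease.

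Aldh1a7, a rodent copy of Aldh1a1, lies 49.5 kb beyond it on the opposite strand, from 20692953 to 20727562. It was at 3.71 TPM (263 counts) in replicate 1 and 3.12 TPM (237.2 counts) in replicate 2, a mean of 3.42 ± 0.42 TPM (SD, n = 2). The TPM ratio of Aldh1a1 to Aldh1a7 was 26.5 and 32.1, and 26.9 and 32.3 in the read-derived transcript table, which was quantified without the same alignment. The 2 neighbours differed in level in both libraries and both quantifications. These are levels of whole genes, whereas the 120 bases with 87.5% identity precede the start of the 13-exon Aldh1a1-201 only. The read-derived table gave 41.9% and 43.8% of the Aldh1a1 TPM to Aldh1a1-206, which starts 109246 bases upstream. In that table Aldh1a1-201 alone was at 88.6 and 88.3 TPM, against 5.9 and 4.94 TPM for Aldh1a7.

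Aldh1a2, the enzyme that makes most retinoic acid in the embryo's mesoderm, was the second Aldh1a gene. It was at 23.95 TPM (1870 counts) in replicate 1 and 19.9 TPM (1668 counts) in replicate 2, a mean of 21.9 ± 2.85 TPM (SD, n = 2). Replicate 1 was the higher library. The gene lies on chromosome 9 from 71215789 to 71296243 on the plus strand.

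Aldh1a3, the enzyme known from eye and nasal epithelium, was at 2.51 TPM (296 counts) in replicate 1 and 2.79 TPM (336 counts) in replicate 2. The mean was 2.65 ± 0.20 TPM (SD, n = 2). It lies on the minus strand of chromosome 7 from 66390890 to 66427517. It was the lowest of the detected members.

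In order of mean TPM the genes were Adh1, Aldh1a1, Adh5, Aldh1a2, Adh7, Rdh10, Aldh1a7, Aldh1a3 and Adh4. Neighbours were called separated where their ranges over the 2 libraries did not overlap, which held for 7 of the 8 steps. The exception was Rdh10 against Aldh1a7, 1.05 times apart. The steps were 23.3 times from Adh1 to Aldh1a1, 1.57 from Aldh1a1 to Adh5, 2.89 from Adh5 to Aldh1a2, 1.21 from Aldh1a2 to Adh7, 5.05 from Adh7 to Rdh10, 1.29 from Aldh1a7 to Aldh1a3 and 14.3 from Aldh1a3 to Adh4. Adh1 made up 91.4% and 91.8% of the 2505.8 and 2540.5 TPM of the 9 genes together. The read-derived table reversed 2 of the steps, with Adh5 (227.5 and 232.3 TPM) above Aldh1a1 (158.4 and 159.4 TPM) and Adh7 (65.7 and 60.5 TPM) above Aldh1a2 (37.8 and 32.2 TPM).

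**Figure D2:**
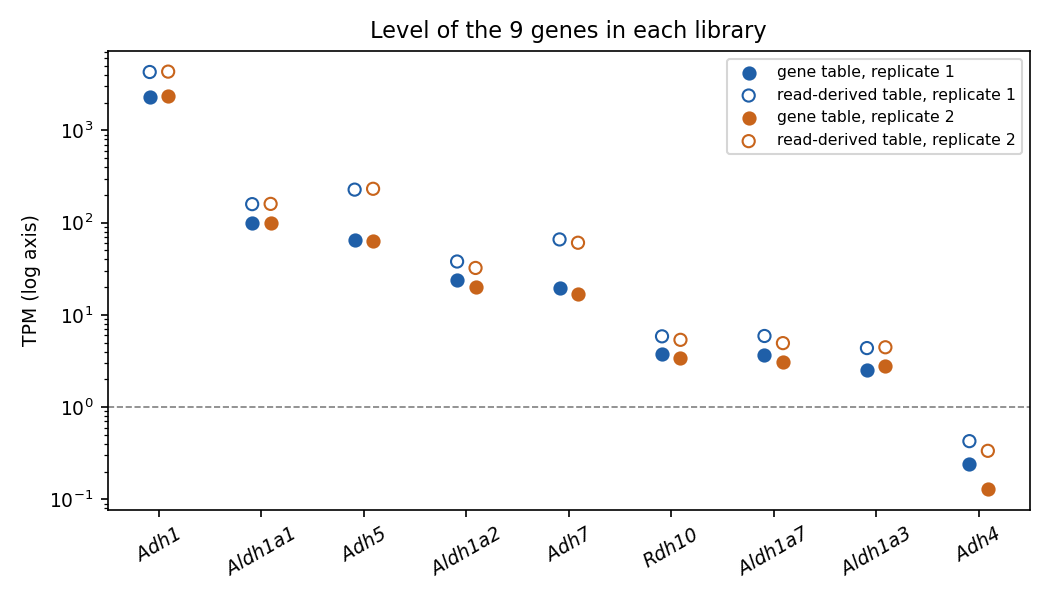
TPM (log axis) of each of the 9 genes in replicate 1 (blue) and replicate 2 (orange), from the gene table (filled) and summed from the read-derived transcript table (open), with a dashed line at 1 TPM. Adh1 stands highest in every set, from 2289.7 TPM upwards, Adh4 lies below 1 TPM in every set, and the open points of Adh5 and Adh7 are the farthest above their filled points among the detected genes.

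The shift of scale between the tables was not equal among the genes. The read-derived TPM was 1.75 times the gene-table TPM at the median of 11850 nuclear protein-coding genes at 1 TPM or more in both tables. The 10th to 90th percentile was 1.48 to 2.31. These genes were not required to pass in each library, unlike the 11662 nuclear protein-coding genes called detected. The factor was 1.86 for Adh1, 1.601 for Aldh1a1, 1.597 for Aldh1a2, 1.66 for Aldh1a3, 1.59 for Aldh1a7 and 1.56 for Rdh10. Adh5 had a factor of 3.63 and Adh7 of 3.47, larger than in 99.4% and 99.3% of these genes. The counts differed much less, with read-derived counts 1.13 times the gene-table counts for Adh5 and 1.15 times for Adh7, against a median of 1.09.

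The transcript shares of Adh5 and Adh7 also differed between the tables. In the alignment-derived table the coding Adh5-201 (1604 bases) held 83.0% and 91.1% of the gene's TPM, and the next, Adh5-207, an annotated target of nonsense-mediated decay, 13.6% and 7.14%. In the read-derived table Adh5-201 held 23.09% and 24.03%, below the retained-intron transcript Adh5-202 of 561 bases (29.8% and 30.3%) and Adh5-207 of 956 bases (29.6% and 27.4%). The TPM of the coding Adh5 transcript itself was 53.1 and 57.2 against 52.5 and 55.8, a ratio of 0.98, below the median factor of 1.75 between the tables. Its counts were 2883 and 3331 in the alignment-derived table and only 1711 and 1936 in the read-derived table. The higher Adh5 level of the read-derived table was in its shorter non-coding and decay transcripts, while its coding transcript was lower relative to that table's scale. Which table places these reads correctly was not tested.

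For Adh7 the alignment-derived table gave the coding Adh7-201 (3432 bases) 57.2% and 72.2%, and the 502-base processed transcript Adh7-202 36.9% and 23.0%. The read-derived table gave most TPM to the 470-base retained-intron transcript Adh7-203, 41.0% and 48.6%, and 29.6% and 32.7% to Adh7-201. By count, Adh7-201 held 1341 and 1569 of the 1461 and 1641 alignment-derived counts. Its own TPM was 11.2 in replicate 1 and 12.2 in replicate 2, higher in replicate 2, whereas the TPM of the whole gene was lower there. The short Adh7-202 held 105 counts in replicate 1 and 60.5 in replicate 2.

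Adh1 had the same leading transcript in both tables. Adh1-201, coding and of 9 exons, held 87.4% and 88.4% of the alignment-derived TPM and 86.3% and 87.5% of the read-derived TPM. The tables differed in what came second. The alignment-derived table put Adh1-202, a decay target, at 11.2% and 10.7%, where the read-derived table listed it at 0. The read-derived table put the processed transcript Adh1-204 at 12.6% and 11.8%, where the alignment-derived table had 0.0345% and 0.0094%. Adh1-204 is annotated to start 16503 bases upstream of Adh1-201, and which table places these reads correctly was not tested.

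Aldh1a1 also kept its leading transcript, but not its share. The 13-exon Aldh1a1-201 held 97.1% and 98.3% of the alignment-derived TPM and 56.0% and 55.4% of the read-derived TPM. The remainder in the read-derived table was mostly Aldh1a1-206, a coding transcript of 16 exons that starts 109246 bases upstream, with 41.9% and 43.8% against 1.29% and 1.04% in the alignment-derived table. The 2 libraries were close within each table, and the tables disagreed. Aldh1a2 and Aldh1a7 have 1 annotated transcript each. Aldh1a3-201 held 96.0% and 89.6% of the alignment-derived and 92.2% and 92.0% of the read-derived TPM, with Aldh1a3-203 second. Rdh10-201 held 97.9% and 95.6%, and 100% and 97.0%, the rest being the retained-intron Rdh10-202. In all, the leading transcript was the same in 7 of the 9 genes. For Aldh1a2 and Aldh1a7, with 1 annotated transcript each, this was fixed in advance, and Adh4 held only 9 and 6 counts.

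**Figure D3:**
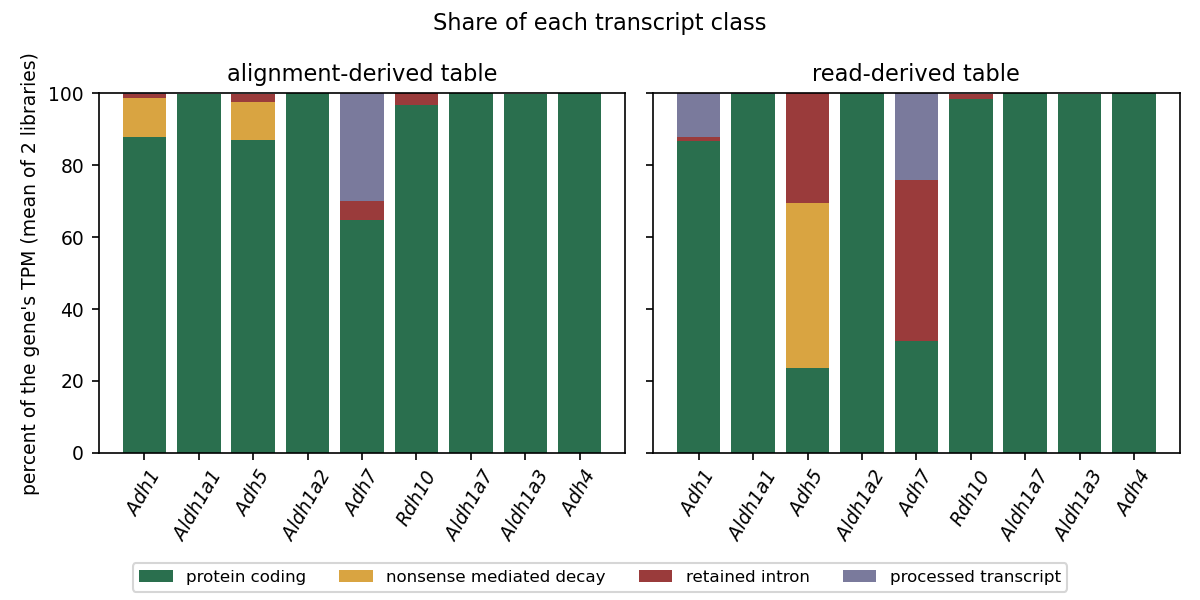
Percent of each gene's TPM (mean of the 2 libraries) in protein-coding, nonsense-mediated decay, retained-intron and processed transcripts, in the alignment-derived table (left) and the read-derived table (right). The coding share of Adh5 is 87.1% on the left and 23.6% on the right, that of Adh7 64.7% and 31.2%, and the other 7 genes stand above 85% in both.

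The members differed little between the libraries. The comparison used the log2 ratio of replicate 2 over replicate 1 of TPM + 0.1, which understates the change of low genes, in genes with 200 or more summed counts. Of the 9 members 8 passed that filter, all but Adh4, and 0 of the 8 were 2-fold or more apart, against 0.904% of 12280 genes. With a background that low, the count of 8 genes is too small to set the members apart from it. Their log2 ratios had a median of -0.08, against 0.04 over all genes (SD 0.373 over genes). Of the 8, 5 were lower in replicate 2 (4 to 6 under the other scalings). The share of all genes that were lower is not given here, so this count is no result about the members. The sign changed for Adh1, Adh7 and Aldh1a1 with TMM or DESeq2 factors and for Adh5 in the read-derived table. With those factors the log2 ratio of Adh7 was 0.03, against -0.21 by TPM, and the values of the other 3 genes, before and after the change of sign, were 0.03 or less in size after rounding.

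Aldh1a2 had the lowest log2 ratio, -0.26, farther from 0 than in 79.6% of genes. Its share of all counts in replicate 2 was 0.822 times that in replicate 1, with an exact 95% interval of 0.769 to 0.879 that covers counting error only. Aldh1a7 had a log2 ratio of -0.24 and a count share ratio of 0.831 (0.694 to 0.994). For both genes the counting interval lay below 1. It excluded 1 in either direction for 3 of the 8 members (Adh1, Aldh1a2 and Aldh1a7), against 40.3% of the 12280 genes, and lay below 1 for 2 of the 8, against 16.4%. A share near that background is no result about the members, and the spread between animals cannot be tested with these 2 libraries. The 5 capsule and fibroblast markers were also all lower in replicate 2 (summed TPM of 177.2 and 156.7), as were the 5 chromaffin markers (1479.6 and 1109.7). The same held for the 8 liver genes (124.4 and 87.5) and the 5 skeletal muscle genes (246.3 and 2.02). In each of the other marker lists some genes were lower and some were not. The part of any of these tissues or cell types in the Aldh1a2 and Aldh1a7 values was not tested.

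Rdh10 had a log2 ratio of -0.13 with a count share ratio of 0.889 (0.779 to 1.013), and Aldh1a3, the highest, 0.15 with 1.05 (0.893 to 1.23). For these 2 genes the counting interval included 1. Adh5 had a log2 ratio of -0.03 and Aldh1a1 of 0.02, with count share ratios of 1.008 (0.960 to 1.06) and 1.011 (0.979 to 1.05). Adh1 had a log2 ratio of 0.03 and, at its depth, a count share ratio of 1.011 whose interval was 1.003 to 1.02. Adh7 had a log2 ratio of -0.21 by TPM and a count share ratio of 1.04 (0.965 to 1.11), so its direction depended on the scale. Adh4, outside the filter, had a count share ratio of 0.615 with an interval of 0.180 to 1.93, and a difference was not detectable at its depth.

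**Figure D4:**
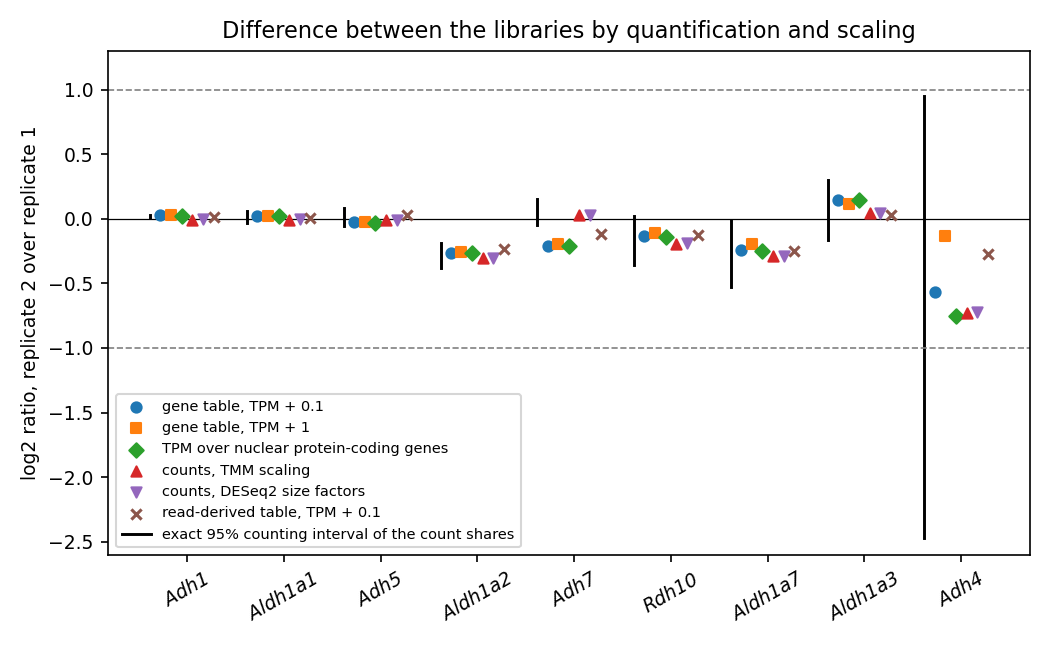
Log2 ratio of replicate 2 over replicate 1 for each of the 9 genes under 6 ways of scaling or quantifying (symbols), with the exact 95% counting interval of the ratio of count shares (black bars) and dashed lines at a 2-fold difference. Aldh1a2, Aldh1a7, Rdh10 and the barely counted Adh4 lie below 0 in all 6, and the symbols of Adh7 fall on both sides of 0.

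The gene table also gives bounds of a TPM interval, whose level no source used here states. Of the 8 members that passed the filter, 2 (Adh1 and Aldh1a2) had intervals that did not overlap between the libraries, against 14.8% of 11599 nuclear protein-coding genes. The intervals of Aldh1a2 were 22.5 to 24.6 and 18.6 to 20.5 TPM.

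The other genes of the retinoid route were read from lists of 49 distinct genes. Of these 28 were detected, against a background of 53.0% of nuclear protein-coding genes, which also applies to each list below. In mean TPM 22 stood above Rdh10, 7 of them also above Aldh1a2. Of the 26 that passed the count filter, 0 were 2-fold apart, against 0.904% of 12280 genes, and their median log2 ratio was -0.02. The lists were chosen with earlier results known, so these counts are a description and no result about the route. Lpl and Lipe were the genes of these lists above Aldh1a1, and none stood above Adh1.

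Of 11 genes that bind or carry retinoids 5 were detected, led by Fabp5, a fatty acid and retinoic acid carrier (16.1 and 14.0 TPM), Rbp4, the plasma retinol carrier (12.7 and 12 TPM), and Rbp7, a cellular retinol-binding protein (6.37 and 5.02 TPM). Of 16 further genes that interconvert retinol and retinaldehyde or belong to the same enzyme families 7 were detected and 4 (Rdh8, Rdh9, Sdr16c5 and Sdr16c6) held 0 counts in both libraries. The highest were Dhrs7 (82.7 and 87.9 TPM), a short-chain dehydrogenase, Dhrs3 (39.8 and 38.4 TPM), which reduces retinaldehyde back to retinol, and Dhrs4 (26.9 and 27.4 TPM). All 3 stood above Rdh10 in mean TPM.

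Of 7 genes of retinoid storage and carotenoid cleavage 4 were detected. Lpl (150.5 and 170.9 TPM) and Lipe (104.8 and 107.7 TPM), lipases that are also high in adipocytes, led with Dgat1 (23.2 and 27.8 TPM), and the 6 adipocyte markers summed to 1851 and 1835.2 TPM, so the part of fat around the gland in these values was not tested. Lrat, the main retinol esterifying enzyme of liver stellate cells, held 4 and 1 counts and Rpe65 0. Among the Cyp26 genes, whose enzymes break down retinoic acid, Cyp26b1 was detected (1.97 and 2.16 TPM), Cyp26a1 held 1 and 0 counts and Cyp26c1 0.

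All 7 receptor genes were detected, the highest being Rxrb (17.9 and 16.9 TPM), Rxra (16.9 and 15.6 TPM) and Ppard (13.5 and 12.2 TPM). The retinoic acid receptors proper were lower, Rarg at 7.04 and 6.59 TPM, Rara at 6.07 and 6.09 TPM and Rarb at 3.73 and 4.91 TPM. Of 12 genes known to respond to retinoic acid 8 were detected, led by Dhrs3, Nrip1 (25.9 and 30.02 TPM), a nuclear receptor corepressor, and Rarres2 (20.5 and 16.0 TPM), which encodes the adipokine chemerin. These levels do not show whether retinoic acid acted in the gland.

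Of the 21 other genes of the alcohol and aldehyde dehydrogenase lists 15 were detected, against the background of 53.0%. Of the 15, 9 stood above Aldh1a2. Akr1a1, an aldehyde reductase, was at 286.3 and 278.5 TPM and Adhfe1, a mitochondrial hydroxyacid dehydrogenase, at 20.3 and 22.3 TPM. Aldh2, the mitochondrial enzyme that oxidises acetaldehyde from ethanol, was at 627.6 and 615.2 TPM, Aldh6a1, of valine breakdown, at 64.1 and 68.8 TPM, and Aldh3b1 at 47.8 and 58.9 TPM. Adh1 was therefore also higher than every gene of these lists in both libraries, and Aldh2 and Akr1a1 were higher than Aldh1a1. Of the 15 that passed the count filter, 0 were 2-fold apart, against 0.904% of 12280 genes.

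**Figure D5:**
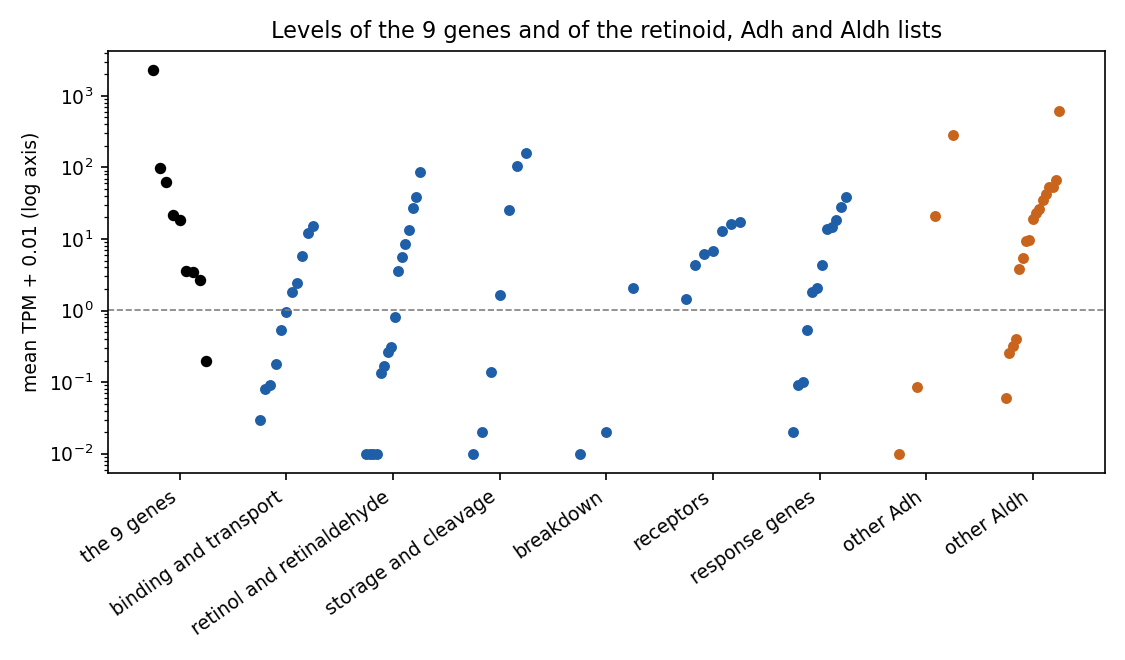
Mean TPM + 0.01 over the 2 libraries (log axis) of the 9 genes (black), of the retinoid lists (blue) and of the other Adh and Aldh lists (orange), each point a gene, with a dashed line at 1 TPM. Adh1 at 2310.5 TPM is the highest point, Aldh2 at 621.4 TPM the next, and all 7 receptor genes lie above the line.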

How the data were processed

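Each of the 2 libraries came with a gene table and 2 transcript tables. The authors' gene table and alignment-derived transcript table hold expected counts and TPM per the file headers, with RSEM's column names. Text deposited beside the files names mm10 and GENCODE M21. The deposited read-derived table holds estimated counts and TPM with kallisto's column names. Bounds of a TPM interval, also deposited, were treated as signal. For the aligner, versions and strand setting, the entry is: not given in the sources used here. TPM counts all RNA classes in its total, which lowers TPM where small RNAs are abundant.

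The members and gene lists were chosen with earlier results of these data known. Named genes are all members, the 3 highest of each list, genes at 0 and the 3 nearest in level to each of the 3 leading members. Rarg, Rara, Rarb, Cyp26a1, Lrat and the genes around Adh1 were named after their values were seen. Ratios use TPM + 0.1 and 200 or more summed counts. Alternatives were TPM + 1, no filter, TPM over nuclear protein-coding genes, TMM factors (edgeR 4.0.16) and DESeq2 1.42.0 size factors on rounded expected counts (R 4.3.3), the read-derived table and each library alone. No count model was fitted. Clopper-Pearson and Poisson 95% intervals cover counting error only. Sequences are from GENCODE transcripts and RefSeq promoters, which are reference sequences, and CAST/EiJ alleles were not examined. Python 3.11.15, numpy 2.4.6, pandas 2.3.3, scipy 1.17.1 and matplotlib 3.10.9 were used.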

Additional observations from a re-analysis of the deposited data

How the results depend on the processing

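No paired analysis was possible because the libraries form 1 group. With both libraries used, 8 members were detected and 0 of those past the filter were 2-fold apart under every alternative run. Over all genes, 111 were 2-fold apart, 73 with TPM + 1 and 1925 with no filter, and 104, 104 and 118 with TMM, DESeq2 size factors and the read-derived table. The Adh1 share of the members' TPM was 91.6%, 91.4% to 91.8% with single libraries and 89.5% in the read-derived table. The ratio of Aldh1a1 to Aldh1a7 was 29.3, 26.5 to 32.1 with single libraries and 29.6 in the read-derived table. Under TMM the log2 ratio was -0.01 for Adh1, 0.03 for Adh7 and -0.01 for Aldh1a1, the opposite sign to the TPM values, with the same signs under DESeq2 factors, and in the read-derived table it was 0.03 for Adh5. Members lower in replicate 2 numbered 5, 6 with TMM or DESeq2 factors and 4 in the read-derived table, counts given without a background share over all genes. Taken over nuclear protein-coding genes alone, mean TPM went from 2310.5 to 7405.3 for Adh1, from 99.3 to 318.2 for Aldh1a1 and from 3.6 to 11.5 for Rdh10. Depth limits Adh4 most of all, and next Aldh1a7 (263 and 237.2 counts), Aldh1a3 (296 and 336) and Rdh10 (470 and 453). An interval that includes 1 does not by itself mark low depth. The counting intervals of Adh4, Rdh10 and Aldh1a3 included 1, as did those of the more deeply counted Adh5, Adh7 and Aldh1a1, and that of Aldh1a7 did not.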

Other observations

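The deposited TPM of Adh1 lay above the interval deposited beside it in both libraries, 2289.7 TPM against 2232.5 to 2263.5 in replicate 1 and 2331 TPM against 2277.3 to 2306.0 in replicate 2. No other member's TPM lay outside its interval. Among 12747 detected genes, 319 (2.5%) in replicate 1 and 303 (2.38%) in replicate 2 lay outside theirs, 91 and 90 of them above it.

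The gene Gm16559 is annotated antisense to Adh1 and shares 43 of the 50-base stretches of Adh1-201, yet held 0 counts in both libraries. The 3 genes annotated on the opposite strand within Aldh1a1 and Aldh1a2 (C730002L08Rik, Gm6684 and Gm48124) were also at 0.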
